A study of Mus musculus with 4 samples.

Results

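The sarcomeric myosin heavy chain genes followed here were Myh1, Myh2, Myh3, Myh4, Myh6, Myh7, Myh7b and Myh8. They were taken by symbol and are 8 of the 32285 genes counted in the single-cell RNA sequencing of fetal leg muscle from mice with and without the long noncoding RNA gene SYISL. Leg muscles were dissected from littermate fetuses at E18.5, shortly before birth, after heterozygous matings, digested with trypsin and DNase I and passed through a cell strainer. The dissociated cells were then profiled with the 10x Genomics Chromium Single Cell 3′ v3 kit. There were 2 libraries from SYISL wild-type fetuses (WT) and 2 from SYISL knockout fetuses (KO), and no treatment was given to either group. All fetuses grew in a heterozygous mother, and the number and sex of the fetuses in each library were not given in the sources used here. The level of SYISL itself was not analysed here, so the genotype labels were taken as given. Values in the 4 libraries are listed in the order WT replicate 1, WT replicate 2, KO replicate 1 and KO replicate 2.

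Myosin heavy chains are the motor proteins of the thick filament, and each gene encodes an isoform with its own speed of contraction. During development, skeletal muscle first uses the embryonic isoform of Myh3 and the perinatal isoform of Myh8, and after birth replaces them in most fibres by the fast isoforms of Myh2 (type IIA), Myh1 (type IIX) and Myh4 (type IIB). Myh7 encodes the slow type I isoform, which the heart ventricle shares, Myh6 encodes the alpha-cardiac isoform, and Myh7b is an ancient member found in heart, slow muscle and muscle spindles.

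The fetal and fast genes lie side by side on the forward strand of chromosome 11. On the mouse build GRCm38 the order is Myh3 (chr11:67078300-67102291), Myh2 (chr11:67171027-67197517), Myh1 (chr11:67200052-67224575), Myh4 (chr11:67238029-67260446) and Myh8 (chr11:67277124-67308634). Myh6 (chr14:54941921-54966927) and Myh7 (chr14:54970684-54994626) are neighbours on the reverse strand of chromosome 14, and Myh7b (chr2:155611212-155634307) is on the forward strand of chromosome 2. All 8 are protein-coding genes. The stretches just before 4 RefSeq transcription starts (GRCm38.p6) are printed 5′ to 3′, since Myh3 and Myh8 carried most of the counts below, Myh4 of the same cluster carried almost none, and Myh7b was spread over other cells. Capitals mark every match to a TATA box (TATAAA), an E-box (CANNTG, the letters that myogenic regulatory factors bind), the MEF2 site or the CArG box, each searched on both strands.
Myh3, chr11:67078050-67078299, forward strand: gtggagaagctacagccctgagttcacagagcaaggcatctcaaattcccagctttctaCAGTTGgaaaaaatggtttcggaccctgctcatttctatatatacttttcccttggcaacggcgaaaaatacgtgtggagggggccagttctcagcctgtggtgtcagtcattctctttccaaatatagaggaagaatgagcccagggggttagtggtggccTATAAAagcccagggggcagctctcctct
Myh8, chr11:67276874-67277123, forward strand: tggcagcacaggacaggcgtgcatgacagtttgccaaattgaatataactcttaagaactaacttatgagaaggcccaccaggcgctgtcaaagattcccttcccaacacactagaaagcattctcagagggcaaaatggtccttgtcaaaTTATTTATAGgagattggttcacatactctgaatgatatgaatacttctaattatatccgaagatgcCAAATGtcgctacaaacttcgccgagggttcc
Myh4, chr11:67237562-67237811, forward strand: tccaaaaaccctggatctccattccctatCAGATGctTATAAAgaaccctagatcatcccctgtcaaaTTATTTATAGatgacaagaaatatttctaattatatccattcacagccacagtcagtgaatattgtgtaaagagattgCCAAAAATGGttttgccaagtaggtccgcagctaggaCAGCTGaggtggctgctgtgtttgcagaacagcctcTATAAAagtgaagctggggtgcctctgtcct
Myh7b, chr2:155610993-155611211, forward strand: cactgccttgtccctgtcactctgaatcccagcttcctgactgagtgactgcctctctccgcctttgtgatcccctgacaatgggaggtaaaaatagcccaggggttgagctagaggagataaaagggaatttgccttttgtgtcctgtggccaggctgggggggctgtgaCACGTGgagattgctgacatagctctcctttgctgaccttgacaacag

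The Myh3 stretch held 1 TATA box at -29 to -24 from the start and 1 E-box at -191 to -186. That of Myh8 held an E-box at -32 to -27 and a MEF2 site at -99 to -90, which overlaps the reverse of TATAAA. Myh4 had the most matches, with 3 of TATAAA (1 of them overlapping its MEF2 site), 2 E-boxes, 1 MEF2 site and 1 CArG box. The same 10 letters of the MEF2 match stood before Myh1, Myh4 and Myh8. Only an E-box, at -79 to -74 from the RefSeq start, was found before Myh7b, whose printed stretch stops at the earlier GENCODE start, and none of the 4 motifs before Myh2. Over 32851 RefSeq promoters, windows of 250 bases held TATAAA in 12.4%, an E-box in 66.2%, a MEF2 site in 2.92% and a CArG box in 1.47%. A match describes the letters and was not tested for binding.

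The 4 libraries held 9528 to 11670 barcodes and 109653824 to 126257094 unique molecular identifiers (UMIs, each standing for 1 captured RNA molecule). The bounds of the study (1000 to 6000 genes, 1000 to 25000 UMIs and less than 8% mitochondrial UMIs) kept 36969 of 41741 barcodes, with a median of 9118 to 11427 UMIs per cell. Any 2 libraries shared 21 to 41 barcodes. Xist RNA, which is made from the silenced X chromosome of females, was found in 98.2% of kept cells of KO replicate 2 and in at most 0.059% of cells of each other library, so sex and this library cannot be told apart. Cells were clustered without the 8 genes, and 6716 cells (1478, 1314, 2030 and 1894) fell in clusters led by myogenic markers such as Pax7, Myf5, Myod1 and Myog. They are called myogenic-like, and 30253 kept cells lay outside. Within the myogenic-like cells, 3566 were progenitor-like, 1149 myoblast-like and 76 myotube-like, and 1925 cells led by cell cycle genes were given no stage. The defining markers were present where the label puts them, with Mylpf, Acta1, Ckm and Tnnc2 among the leading genes of the myotube-like cells.

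Myh3 and Myh8 made up nearly all sarcomeric myosin heavy chain UMIs counted in these dissociated and strained cells. How far they stand for whole muscle fibres was not tested. At the same age the paper stained leg muscle fibres for the slow protein MyHC I. In leg muscle of fetuses from other matings it also reported changed MYH7, MYH4 and MYH1 RNA in KO. Of 17551 UMIs of the 8 genes in all deposited barcodes, Myh3 had 10520 in 1069 barcodes and Myh8 had 6363 in 1574 barcodes. The count of Myh3 was 912, 2556, 3292 and 3760 in the 4 libraries, and that of Myh8 was 742, 1282, 2225 and 2114. Both were lowest in WT replicate 1, and the highest was KO replicate 2 for Myh3 and KO replicate 1 for Myh8. Counts of 3′ ends do not grow with transcript length, and the longest transcripts of the 8 genes range only from 6016 to 6230 bases, so UMIs were set side by side without division by length.

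The other 6 genes were rare. Myh7b had 396 UMIs, with 99, 105, 97 and 95 by library. Myh1 followed with 103 (19, 30, 34 and 20), Myh6 with 68 (22, 10, 15 and 21), Myh7 with 55 (21, 14, 9 and 11) and Myh2 with 41 (11, 10, 10 and 10). The type IIB gene Myh4, the main isoform of adult fast limb muscle in mice, had 5 UMIs in all libraries (1, 2, 2 and 0). Counts of Myh7b and Myh2 were nearly even across libraries, unlike those of Myh3. Most of the genes share some sequence with another of the 8, which may leave rare counts less certain. Of all 100-base windows of the transcripts, 10.0% for Myh6, 8.99% for Myh1, 7.80% for Myh2 and 7.71% for Myh7 occurred in another of the 8 genes. For Myh4 this was 3.85% and for Myh8 2.64%, but none for Myh3 or Myh7b. The windows cover whole transcripts, and whether the counted 3′ ends are shared was not tested.

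Among kept cells, Myh3 and Myh8 were lowest in progenitor-like, higher in myoblast-like and highest in myotube-like cells. In progenitor-like cells Myh3 stood at 2.18, 0.714, 1.53 and 1.38 UMIs per 1000000 UMIs of those cells (CPM), in myoblast-like cells at 26.6, 58.2, 35.1 and 37.2 CPM, and in myotube-like cells at 786, 450, 524 and 1540 CPM. No library of one stage reached the level of the next stage. For Myh8 the corresponding levels were 8.43, 8.42, 5.995 and 7.54 CPM in progenitor-like cells, 34.9, 42.8, 29.7 and 24.8 CPM in myoblast-like cells and 296, 600, 604 and 1218 CPM in myotube-like cells. The order was the same, with the smaller step between the first stages.

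**Figure D1:**
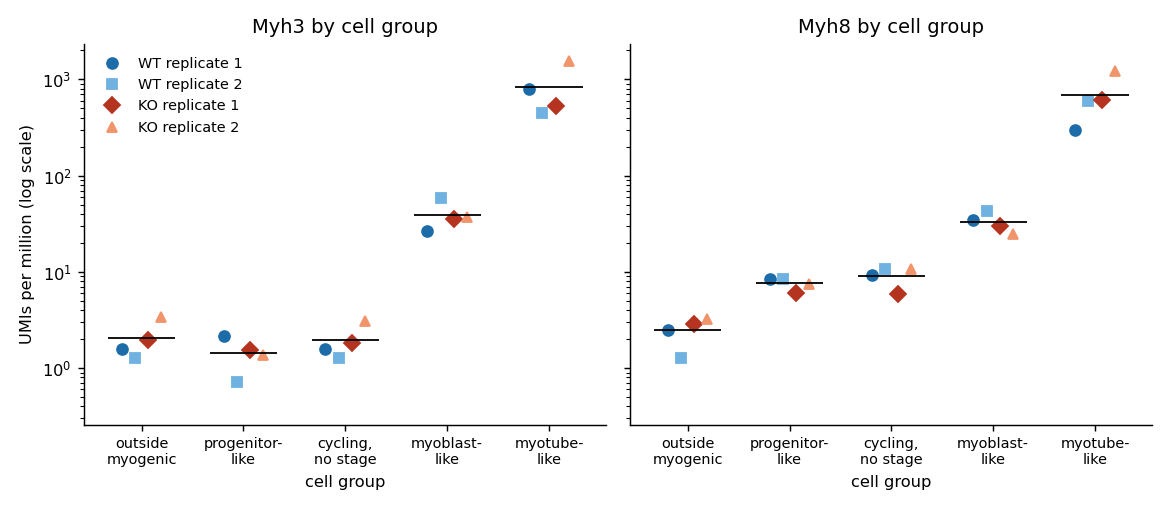
Level of Myh3 (left) and Myh8 (right) in each library, in UMIs per 1000000 UMIs on a log axis, by cell group, with points for the 4 libraries and bars for their mean. The myotube-like cells sit between 296 and 1540, above every other group, and Myh8 alone lies above its outside level in progenitor-like cells of all libraries.

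Cells outside the myogenic-like class, which should mostly lack these genes, gave the background. A few of them held many UMIs of these genes, as described below. There Myh3 was at 1.57, 1.26, 1.97 and 3.38 CPM and Myh8 at 2.46, 1.26, 2.89 and 3.24 CPM. The level of Myh3 in progenitor-like cells overlapped this background, whereas that of Myh8 lay above it in every library. Because depth differs between cells, each cell was also thinned to 2000 UMIs. Myh3 was then detected in 52.0%, 36.4%, 38.5% and 66.7% of the 25, 11, 13 and 27 myotube-like cells, whose median depths were 3985, 4767, 8896 and 10017 UMIs. Outside the myogenic-like class, at median depths of 9150 to 11438 UMIs, thinned cells had a Myh3 UMI in 0.299% to 0.517% of cases and a Myh8 UMI in 0.292% to 0.618%. Myh8 was detected in 28%, 54.5%, 38.5% and 63.0% of thinned myotube-like cells and in 1.22%, 1.31%, 1.08% and 1.49% of thinned progenitor-like cells. The myotube-like shares rest on few cells. Stages are clusters, so these levels are a description without a test.

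Of the adult and slow isoforms, Myh1 was the one found mainly in myogenic-like cells. Its kept UMIs there numbered 15, 21, 17 and 4 (0.949, 1.34, 0.894 and 0.205 CPM), against 1, 4, 4 and 9 (0.013 to 0.101 CPM) outside. KO replicate 2 was the lowest inside and the highest outside. Of the Myh1 UMIs of WT replicate 2, 8 came from a single myoblast-like cell. Myh1 was not confined to late stages, with 8, 4, 4 and 1 UMIs in progenitor-like and 5, 7, 7 and 0 UMIs in cycling cells.

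Myh7, the slow isoform, was held by very few barcodes. It was seen in 40 barcodes, and 37 of them had 1 UMI each. The exceptions, named after their values were seen, were a cell of WT replicate 1 with 11 UMIs, a cell of WT replicate 2 with 4 and a barcode of KO replicate 1 with 3. Both WT cells were myotube-like. The first also had 66 Myh3 UMIs, no Myh8, and 104 UMIs of Tnnc1 and 59 of Tnnt1, which encode slow troponin subunits. The second held 10 Myh3 UMIs, 1 Myh8 UMI, 128 UMIs of Myl3 and 106 of Myl2 (slow and cardiac light chains), and 144 of Tnnt1. The first cell lacked most of these light chains, with 3 UMIs of Myl3 and 0 of Myl2. It also had 7 UMIs of Tpm3, a slow partner, against 92 in the second. Fast troponin RNA was present beside them, with 87 and 237 Tnnc2 UMIs.

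Myh7b went the other way. It stood at 0.988, 1.06, 0.899 and 0.828 CPM outside the myogenic-like class and at 0.759, 0.573, 0.421 and 0.461 CPM inside it, lower inside in every library. No Myh7b UMI was counted in the myotube-like cells. Those cells held only 155205, 73340, 137365 and 332509 UMIs of all genes, so a level near 1 CPM would give under 1 UMI in each library. Myh6 had 13, 7, 9 and 18 of its UMIs outside and 3, 1, 3 and 2 inside. Myh2 had 5, 6, 4 and 8 outside and 2, 1, 4 and 1 inside. More cells lay outside, and by CPM neither gene was lower inside in every library. Both were higher inside in WT replicate 1 and KO replicate 1, and lower in WT replicate 2 and KO replicate 2. Myh2 stood at 0.127, 0.064, 0.210 and 0.051 CPM inside and at 0.064, 0.073, 0.051 and 0.089 CPM outside. Neither Myh2 nor Myh4 had a UMI in the myotube-like cells, where a count of 0 still allows 12.0%, 27.3%, 23.1% and 11.1% of cells with a UMI.

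The balance between the embryonic and the perinatal isoform differed between stages. Myh3 made up 20.5%, 7.81%, 20.3% and 15.5% of the Myh3 plus Myh8 UMIs in progenitor-like cells and 14.5%, 10.6%, 23.6% and 22.5% in cycling cells. In myoblast-like cells its share was 43.2%, 57.6%, 54.2% and 60.0%, above both in all libraries. The myotube-like cells were more uneven, at 72.6%, 42.9%, 46.5% and 55.8%. WT replicate 1 had the highest share there, but 66 of its 122 Myh3 UMIs came from the cell with 11 Myh7 UMIs, which had no Myh8. Barcodes above the upper bounds of the filter gave 72.7%, 72.5%, 63.9% and 72.7%, higher than all kept cells (43.2%, 45.3%, 42.4% and 51.6%) in every library.

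**Figure D2:**
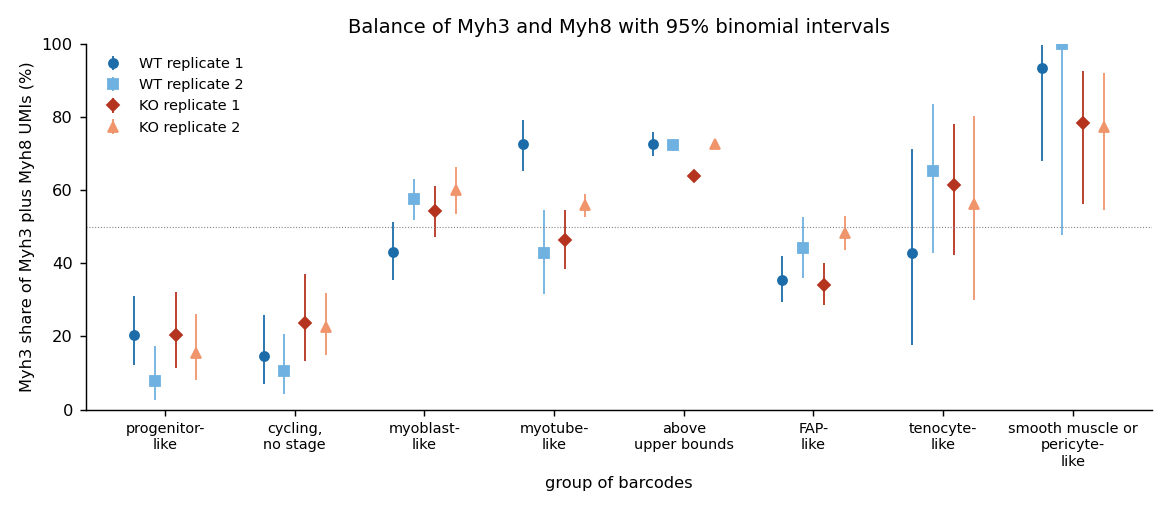
Myh3 as a percentage of Myh3 plus Myh8 UMIs in each library by group of barcodes, with exact 95% binomial intervals that cover counting error only. Progenitor-like and cycling cells lie between 7.81% and 23.6%, and barcodes above the upper bounds between 63.9% and 72.7%.

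Outside the myogenic-like class the balance was not even either. In the cells with fibro-adipogenic progenitor (FAP) markers, the FAP-like cells, Myh3 had 35.5%, 44.1%, 34.2% and 48.2% of 228, 145, 281 and 465 UMIs. In the smooth muscle or pericyte-like cells it had 93.3%, 100%, 78.3% and 77.3% of only 15, 5, 23 and 22 UMIs. The libraries of these classes did not overlap, and over all libraries the smooth muscle or pericyte-like share was 83.1% (exact 95% interval 71.7% to 91.2%) against 41.6% (38.6% to 44.5%) in FAP-like cells. Macrophage-like cells had too few UMIs for a share by library (46 in all, 28.3% Myh3, interval 15.99% to 43.5%), and their libraries lay on both sides of those of FAP-like cells. A cluster of 133 cells led by Spp1, Tnnc1 and Hbb-bs, 130 of them from KO replicate 2, had 13 Myh3 and 6 Myh8 UMIs and was left unnamed.

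A cell with Myh3 had Myh8 more often than a cell without Myh3. Of the 395 myogenic-like cells with a Myh3 UMI, 163 (41.3%, exact 95% interval 36.4% to 46.3%) also had a Myh8 UMI, against 8.16% of those without Myh3. After thinning, the share with Myh8 among Myh3-positive cells was 23.8%, 25%, 16.1% and 38.1% of 21, 24, 31 and 42 cells, and 1.65% to 2.49% of the rest by library. The excess was present in every library. By stage, Myh8 was found in 45 of 57 Myh3-positive myotube-like cells (78.9%), in 104 of 252 myoblast-like cells (41.3%, against 15.1% without Myh3) and in 4 of 40 progenitor-like cells (10.0%, against 5.36%). Outside the class, 57 of 457 Myh3-positive cells (12.5%) had Myh8, against 1.89% of the others. Within myoblast-like cells alone the thinned share was 10.0% of 60 cells against 4.33%, a smaller gap than over all stages.

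Cells with Myh3 and cells with Myh8 also differed in the other genes they held. In a separate random thinning to the same depth, which left slightly different numbers of positive cells, the differentiation factor Myog was detected in 108 of 126 cells with Myh3 (85.7%) and in 24.5% of those without. Pax7, the marker of progenitors, was found in 4 of the 126 (3.17%, against 19.5% without Myh3). Cells with Myh8 had Myog in 104 of 175 (59.4%) and Pax7 in 19 (10.9%). Acta1, the skeletal alpha-actin, was found in 58.7% of cells with Myh3 and 42.9% of those with Myh8, and the muscle creatine kinase Ckm in 26.2% and 21.7%. The fusion factor Mymk was present in 33.3% of cells with Myh3 and in 5.78% of cells without it.

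Across 14 sums of stage by library, the genes with the pattern most like Myh3 were Cacng1 (Pearson r = 0.994 on log2(CPM + 1)), Actn2 (0.993), Mef2c (0.991), Tpm2 (0.991) and Ldb3 (0.991), out of 11153 genes. Among those nearest to Myh8 were Trim35 (0.989), Lrba (0.988), Nkiras1 (0.986) and Cdc42se2 (0.986). Myh3 and Myh8 correlated with each other at 0.968. The sums share libraries and clusters, so these are descriptions.

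In 3 of the 4 libraries most of the myosin heavy chain RNA lay in barcodes that the bounds set aside, with 51.1%, 21.9%, 17.4% and 34.0% of the UMIs of the 8 genes kept. Over all libraries kept cells held 19.2% of the deposited Myh3 UMIs and 35.7% of those of Myh8, and barcodes above 6000 genes or 25000 UMIs held 78.4% and 57.4%. Those 1670 barcodes (403, 555, 305 and 407) were few among the 41741 barcodes and had 13.3% of all UMIs. Myh7b, by contrast, had 87.4% of its UMIs in kept cells. By library, 339, 330, 367 and 989 Myh3 UMIs and 445, 399, 499 and 928 Myh8 UMIs were kept. The library with the most kept was KO replicate 2 for both.

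**Figure D3:**
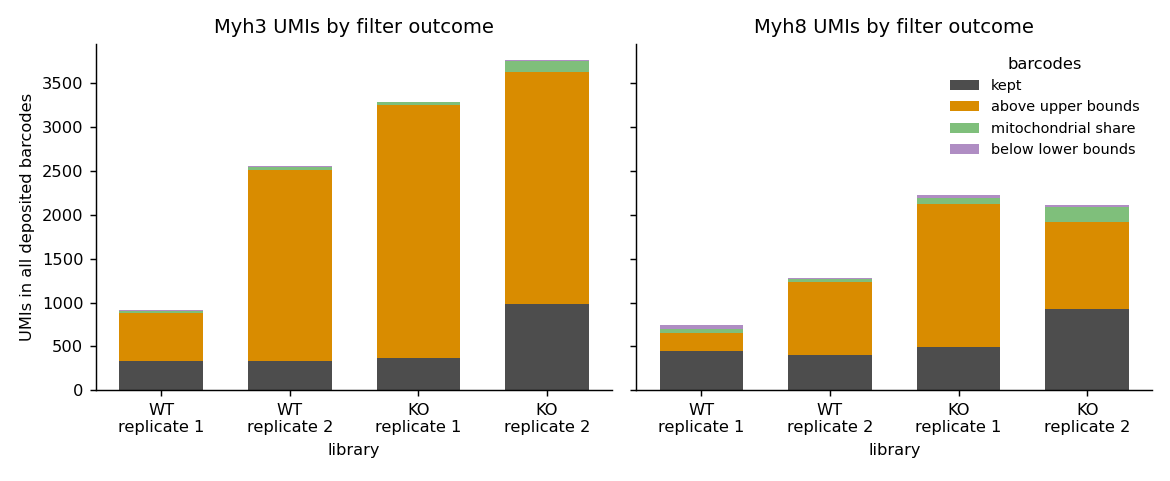
Stacked bars of Myh3 (left) and Myh8 (right) UMIs in all deposited barcodes of each library, split by what the cell filter did with the barcode. The part above the upper bounds is the largest for Myh3 in all 4 libraries, and for Myh8 in all but WT replicate 1.

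A small number of barcodes carried this RNA. There were 116 barcodes with at least 10 UMIs of Myh3 plus Myh8 (14, 27, 26 and 49), called myosin-rich here, and they held 49.1%, 79.3%, 82.9% and 82.0% of the UMIs of the 8 genes by library. Of these, 47 were kept, 59 were above the upper bounds and 10 were set aside for their mitochondrial share. Their depth ran from 962 to 181011 UMIs. The richest, a barcode of KO replicate 1 with 142108 UMIs, had 448 Myh3, 178 Myh8, 11 Myh7b, 5 Myh1 and 3 Myh7 UMIs. Both Myh3 and Myh8 were present in 110 of the 116, Myh3 was the higher in 87 and Myh8 in 26. Adult and slow isoforms joined them in few, with Myh1 in 16, Myh7 in 6, Myh7b in 5 and Myh2 in 3.

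The myosin-rich barcodes above the bounds had the markers of differentiated muscle. Myog, Acta1 and Mylpf (the fast regulatory light chain) were detected in 59 of 59 and Ckm in 58. The summed myogenic markers stood at 11615 to 12580 CPM by library, against 195 to 323 CPM in the other barcodes above the bounds. The FAP markers summed to 871 to 2172 CPM, against 9380 to 11875 CPM in the other barcodes above the bounds, and Pax7 was found in 11 and Pecam1 (endothelial) in 14 of the 59. The collagen gene Col1a1 was found in 45 of them. Markers of smooth muscle or pericytes were higher in them, at 3277 to 3860 CPM against 643 to 1277 CPM, and the part of other cell types in these barcodes was not tested. Of the 47 kept myosin-rich cells, 39 were myogenic-like (29 myotube-like and 10 myoblast-like), 5 FAP-like, 2 tenocyte-like and 1 endothelial-like. Of the 5 that were FAP-like, 4 came from KO replicate 2, and 1 of the 5 had 80 UMIs of the 8 genes.

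**Figure D4:**
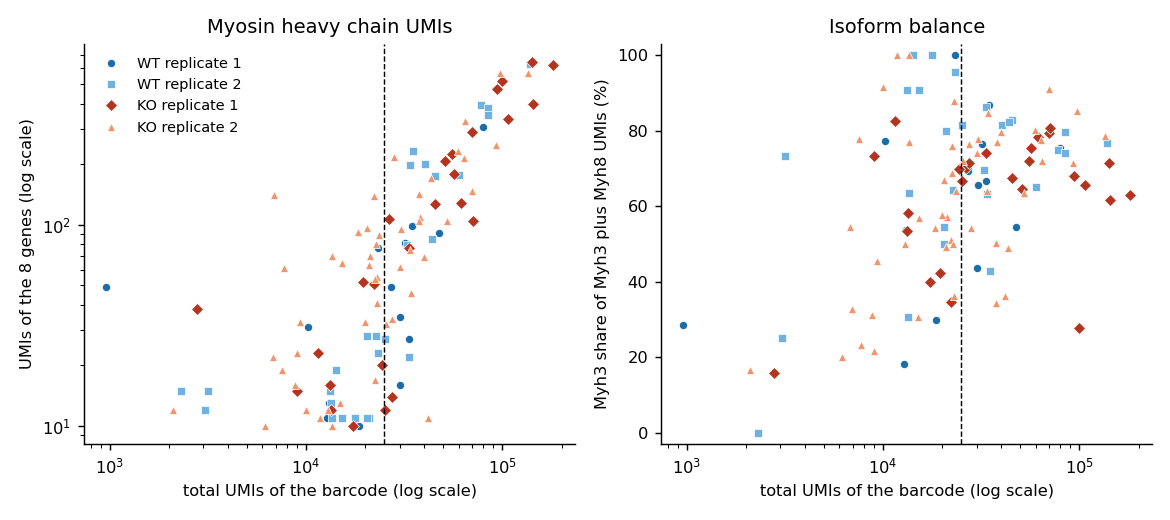
The 116 myosin-rich barcodes by total UMIs (log axis), with UMIs of the 8 genes on a log axis (left) and Myh3 as a percentage of Myh3 plus Myh8 (right), and the dashed line at 25000 UMIs. The richest barcode, with 645 UMIs of the 8 genes, lies to the right of the line, and Myh3 is the higher isoform in 53 of the 59 above the bounds.

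The comparison of KO with WT asks whether deletion of SYISL goes with another level or mix of these isoforms at this age. In myogenic-like cells Myh3 stood at 13.7, 14.4, 11.3 and 35.2 CPM and Myh8 at 16.01, 18.8, 14.4 and 32.7 CPM. KO replicate 1 was the lowest and KO replicate 2 the highest for both, so the groups overlapped. edgeR's quasi-likelihood test on the summed counts gave a log2 fold change of 0.77 (SE 0.42, Benjamini-Hochberg adjusted p = 0.972) for Myh3, 0.49 (SE 0.32, adjusted p = 0.972) for Myh8 and -1.02 (SE 0.57, adjusted p = 0.972) for Myh1. None of the 3 genes tested was called, with 0% of 14633 genes called by edgeR in this comparison. At an unadjusted p under 0.05 edgeR had 1.84% of genes higher (269) and 1.68% lower (246) in KO, none of them a member, and DESeq2 called 1 gene. Without KO replicate 1 the change of Myh3 was 1.38 (edgeR adjusted p = 0.00113) and that of Myh8 0.97 (adjusted p = 0.0272), and without KO replicate 2 they were -0.29 and -0.24. KO replicate 2 also had 3603 UMIs of the red cell globin gene Hbb-bs in its myogenic-like cells, against 709, 1235 and 43 in the others, and the part of this in the result was not tested. In such sums more cells of a kind and more RNA per cell cannot be told apart. P-values here measure the spread between these libraries only.

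The shares within myogenic-like cells overlapped between the groups. A UMI of any of the 8 genes was found in 3.79%, 4.96%, 3.40% and 4.502% of thinned cells, a difference of -0.423 percentage points between KO and WT (exact permutation test, two-sided, p = 0.667). Myh3 had 46.2%, 43.4%, 43.9% and 51.8% of the Myh3 plus Myh8 UMIs, a difference of 3.08 points (exact p = 0.667). The share of Myh3-positive cells with Myh8 differed by 2.71 points (exact p = 1.0). Other settings separated the groups. Without the 10 cells of each library with most UMIs of the 8 genes, the Myh3 share was 34.6%, 32.6%, 44.3% and 42.9% (exact p = 0.333). Those cells were chosen by UMIs of the same genes, so this is a description. The libraries held 5, 10, 5 and 19 myosin-rich myogenic-like cells. Without thinning, the share with any of the genes was 15.9%, 17.9%, 12.1% and 14.6% (exact p = 0.333). Median depth of myogenic-like cells was 10264, 11404, 8964.5 and 9748.5 UMIs, lower in both KO libraries. Its part in the unthinned shares was not tested. With 2 libraries a group the smallest p that this exact test can give is 0.333, so it cannot pass 0.05.

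By stage, Myh8 was lower in KO in myoblast-like cells and higher in KO in myotube-like cells, and neither difference passed the adjusted threshold. In myoblast-like cells each KO library was under each WT library for Myh8 (27.2 ± 3.45 CPM, SD, n = 2, against 38.8 ± 5.56 CPM), as for 18.2% of 10387 genes tested there. The edgeR log2 change was -0.50 (SE 0.16, unadjusted p = 0.00965, adjusted p = 1.0), and that of Myh3 was -0.22 (SE 0.26). In myotube-like cells Myh8 was 911 ± 434 CPM in KO and 448 ± 215 CPM in WT (SD, n = 2), and each KO library exceeded each WT library, by 604 against 600 CPM at the nearest, as for 20.6% of 2092 genes tested. The changes there were 1.01 (SE 0.46, edgeR adjusted p = 0.768) for Myh8 and 0.67 (SE 0.51, adjusted p = 0.815) for Myh3. With 1 library left out that of Myh8 ran from 0.44 (without KO replicate 2) and 0.57 (without WT replicate 1) to 1.62 (without WT replicate 2), and that of Myh3 from -0.26 (without KO replicate 2) to 1.22 (without KO replicate 1). edgeR called 0% of genes in either stage, and DESeq2 called 1 gene in myoblast-like and 0 in myotube-like cells. At an unadjusted p under 0.05 edgeR had 1.74% of genes higher (181) and 1.81% lower (188, Myh8 among them) in myoblast-like cells. In myotube-like cells it had 3.63% higher (76) and 2.2% lower (46), none of them a member. The myotube-like cells of WT replicate 1 also carried neutrophil markers at a sum of 1733 CPM (0 to 13.6 CPM in the other libraries) and FAP markers at 1153 CPM (259 to 436 CPM in the others). Those of KO replicate 2, the highest library for both genes, carried chondrocyte markers at 728 CPM (0 to 13.6 CPM in the others). The part of these in the result was not tested.

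Over all kept cells Myh3 was at 3.62, 3.36, 3.79 and 9.08 CPM and Myh8 at 4.75, 4.07, 5.15 and 8.52 CPM. Each KO library exceeded each WT library for both, as for 9.37% of genes, with KO replicate 2 well above the rest. Myh7 (0.224, 0.132, 0.062 and 0.073 CPM) and Myh7b (0.9496, 0.978, 0.805 and 0.762 CPM) were lower in each KO library, as for 26.1% of genes. The changes were 0.93 (SE 0.41) for Myh3, 0.68 (SE 0.26) for Myh8, -0.25 (SE 0.17) for Myh7b, -0.31 (SE 0.42) for Myh1, 0.35 (SE 0.48) for Myh6 and -1.33 (SE 0.45) for Myh7, with edgeR adjusted p between 0.946 and 0.954. Of the 6 genes tested, Myh8 was higher and Myh7 lower at an unadjusted p under 0.05 by edgeR, as were 2.36% and 2.35% of 20419 genes. Myh7 had only 21, 13, 6 and 8 kept UMIs, and 11 and 4 of those in the WT libraries came from the cells described above. Outside the myogenic-like class, where neither cell lies, Myh7 was also lower in each KO library. It stood there at 0.103, 0.097, 0.064 and 0.078 CPM, from 8, 8, 5 and 7 UMIs. Of the 20067 genes tested there, Myh7 not among them, 22.9% were lower in each KO library. The part of the 2 cells in the difference was not tested. Without KO replicate 1 Myh3 passed the threshold in all kept cells (1.43, edgeR adjusted p = 0.0215), and without KO replicate 2 Myh3 was at 0.16 and Myh8 at 0.26. Outside the myogenic-like class the change of Myh3 was of like size, at 0.96 (SE 0.31, adjusted p = 0.998), and that of Myh8 was 0.76 (SE 0.33). These ran from 0.51 (without KO replicate 2) to 1.30 (without KO replicate 1) for Myh3 and from 0.35 (without WT replicate 2) to 1.32 (without WT replicate 1) for Myh8. In these outside cells too each KO library exceeded each WT library for Myh3 and Myh8, as for 9.14% of 20067 genes. The outside cells included 5 FAP-like myosin-rich cells with 208 UMIs of the 8 genes, 4 of these cells from KO replicate 2. In the unnamed cluster led by Spp1 and Tnnc1, all 13 Myh3 and 6 Myh8 UMIs came from KO replicate 2. The part of such cells in the change was not tested. edgeR called 0% of genes in both comparisons, whereas DESeq2 called 51 and 47, and at an unadjusted p under 0.05 edgeR had 481 higher and 480 lower over all kept cells. Outside, these were 1.72% higher (345, Myh3 among them) and 2.07% lower (416).

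Of the 6 fitted comparisons, the log2 change of Myh3 and of Myh8 was largest above the upper bounds, in barcodes that the study's filter removes. The study chose its range of genes partly to leave out potential doublets. Doublets were called here among kept cells only, so their part in these barcodes was not tested. Myh3 was at 36.2, 109, 253 and 170 CPM and Myh8 at 13.6, 41.6, 143 and 63.7 CPM. Each KO library exceeded each WT library for either gene, as for 12.5% of 16120 genes, while 32.8% of genes were lower in each KO library. The log2 change was 1.61 (SE 0.51, edgeR unadjusted p = 0.0233, adjusted p = 0.486) for Myh3, 1.97 (SE 0.61, unadjusted p = 0.0203, adjusted p = 0.485) for Myh8 and 1.30 (SE 0.58, adjusted p = 0.550) for Myh7b. At an unadjusted p under 0.05, 5.58% of genes were higher and 3.91% lower in KO (899 and 630 genes), 0% were called by edgeR after adjustment, and DESeq2 called 126. None of the 3 tested members was called. With 1 library left out the change ranged from 1.04 (without WT replicate 1) to 2.62 (without WT replicate 2) for Myh3 and from 1.28 (without KO replicate 1) to 3.00 (without WT replicate 2) for Myh8.

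**Figure D5:**
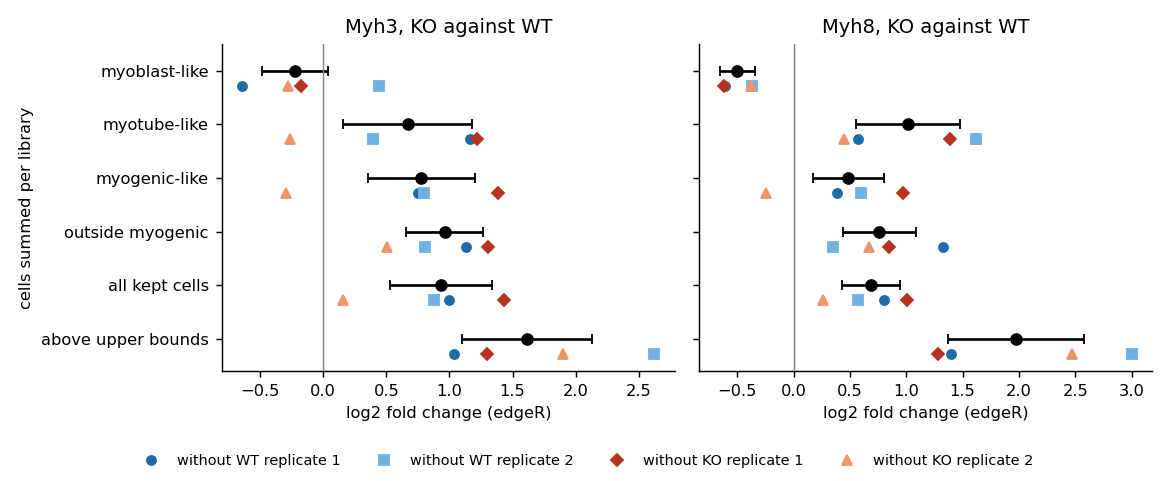
Log2 fold change of KO against WT for Myh3 (left) and Myh8 (right) from edgeR, by the cells summed, with black points for all 4 libraries, bars for 1 SE and coloured points for fits without 1 library. Above the upper bounds all fits are at 1.04 or more, and in myogenic-like cells the fit without KO replicate 2 falls below 0 for both genes.

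Myosin-rich barcodes numbered 19.9, 23.4, 55.7 and 51.6 per 1000 barcodes above the bounds, higher in each KO library than in each WT library (53.7 ± 2.93 against 21.6 ± 2.53, SD, n = 2, exact p = 0.333). Barcodes above the bounds were themselves 4.12%, 5.82%, 2.84% and 3.49% of deposited barcodes, fewer in both KO libraries. Per 1000 deposited barcodes the numbers were 0.817, 1.36, 1.58 and 1.80 (exact p = 0.333), and those of all myosin-rich barcodes, 1.43, 2.83, 2.42 and 4.20, overlapped between the groups. Within the myosin-rich barcodes above the bounds, Myh3 stood at 1626, 2939, 2215 and 2407 CPM and Myh8 at 614, 1082, 1233 and 897 CPM. These barcodes were chosen by their UMIs of the same genes, so these levels are a description.

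Partner genes of the thick filament and of fibre types were read beside the members. Above the bounds, 13 of 15 thick filament partners could be tested and all 13 were higher in KO, with a median log2 change of 1.48. The median of all genes was -0.014, and 47.5% of them were higher. None passed the adjusted threshold. Mylpf was at 360, 569, 1871 and 981 CPM (1.70), Ttn, the giant spring protein titin, at 129, 259, 639 and 393 CPM (1.49) and Myl1, the fast essential light chain, at 120, 201, 708 and 334 CPM (1.78). Each KO library exceeded each WT library for these 3, as for 12.5% of genes tested. Mylpf stood at 13503 to 16051 CPM in the myosin-rich barcodes above the bounds and at 38.7 to 57.8 CPM in the others above them. Myl1 stood at 4521 to 6044 CPM and at 16.3 to 25.4 CPM. These partners thus lay mainly in the same barcodes as the members, so their changes are not separate observations. All 4 fast partners tested (Tnnc2, Tnni2, Tnnt3 and Atp2a1) were higher, with a median of 1.52, as were 4 of 5 slow partners, with a median of 1.17. Of 6 regulators of myosin isoforms such as Sox6, Nfix and Mef2c 4 were higher (median 0.19), and of 4 myosins outside the sarcomere, such as Myh9 and Myh10, none was (median -0.10).

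In kept myogenic-like cells the same lists lay near 0, with no gene past the adjusted threshold. The median was 0.11 for 14 thick filament partners (9 higher), 0.20 for 6 fast partners (4 higher), 0.05 for 5 slow partners (3 higher), 0.02 for 6 regulators (4 higher) and -0.01 for 4 other myosins (2 higher). In myotube-like cells 4 of 5 slow partners were lower in KO, with a median of -1.16. Of all genes tested there, 49.3% were higher, and their median was -0.0087. Tnnc1, the slow and cardiac troponin C, was at 2835 and 3068 CPM in WT and at 1354 and 1257 CPM in KO (-1.24, edgeR adjusted p = 0.768). For Tnnc1, and for Tnnt1 below, each KO library lay under each WT library, as for 16% of 2092 genes tested. The Myh7 cells of WT replicate 1 and WT replicate 2 described above held 104 and 112 Tnnc1 UMIs out of 23367 and 13248 UMIs. All myotube-like cells of these libraries held 155205 and 73340 UMIs of all genes. The part of these cells in the difference was not tested. Tnnt1, at 1256, 2891, 1077 and 845 CPM, was highest in WT replicate 2, the library of one of the Myh7 cells above. The thick filament partners (11 tested, 4 higher, median -0.11) and fast partners (4 tested, 1 higher, median -0.46) did not follow Myh8 upward there, and the 4 regulators tested were all higher (median 0.47) with none called.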

How the data were processed

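Leg muscle cells of 2 WT and 2 KO libraries were sequenced on a NovaSeq6000, and per the labels the authors made the deposited UMI counts with Cell Ranger 7.2.0 on the mouse build mm10. Whether intronic reads were counted was not given in the sources used here. The counts are raw, 1 matrix per library. All scripts used Python 3.11.15 with scanpy 1.11.5 and R 4.3.3.

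Barcodes with 1000 to 6000 genes, 1000 to 25000 UMIs and less than 8% mitochondrial UMIs were kept, the bounds of the study. These left 36969 barcodes, more than its text counts. Doublets were called with Scrublet (1.65% to 2.56% of kept cells) and left in, and removed in an alternative. Kept cells were clustered (Leiden) without the 8 genes. Clusters and stages were named by lists of markers, with cut-offs chosen after seeing the data.

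CPM are UMIs per 1000000 UMIs of the cells summed. KO was compared with WT on UMIs summed per library by edgeR 4.0.16 (quasi-likelihood F test, TMM factors, filterByExpr, Benjamini-Hochberg over all genes tested, threshold 0.05), with DESeq2 1.42.0 as an alternative. The fit above the upper bounds was added after seeing the data. For shares, the group labels were permuted exactly (two-sided, 6 arrangements). Intervals are exact binomial (Clopper-Pearson, 95%) and cover counting error only, as does the limit for a count of 0, set at 3 counts.

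All 8 members were named, other genes from lists of thick filament partners, fast and slow partners, isoform regulators and other myosins (values for up to 4 of each by mean CPM), and as most alike the 5 genes with the highest Pearson correlation to a member with at least 200 UMIs. A few items under these rules are not reported here. Marker genes in myosin-rich barcodes and the cells with most Myh7 were chosen after their values were seen. The members and lists were chosen with earlier results of these data known. Gene positions are from GENCODE M21. The fits were tested on simulated data.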

Additional observations from a re-analysis of the deposited data

Results flagged for a closer look

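Myosin heavy chain RNA stood above the WT level in the KO libraries in 2 of the 3 kinds of barcode that the cell filter set aside. Above the upper bounds, Myh3 averaged 212 ± 59.2 CPM in KO and 72.8 ± 51.8 CPM in WT (SD, n = 2, exact p = 0.333), and Myh8 averaged 103 ± 56.2 CPM and 27.6 ± 19.8 CPM. Of all genes tested there, 12.5% were likewise higher in each KO library. Among barcodes set aside for their mitochondrial share, Myh3 averaged 67.6 ± 50.7 CPM in KO and 18.501 ± 5.79 CPM in WT, and Myh8 averaged 100.4 ± 54.7 CPM and 30.5 ± 5.02 CPM (exact p = 0.333). Single barcodes weighed on these levels. In KO replicate 2 a single barcode held 46 of 125 Myh3 and 94 of 168 Myh8 UMIs. In WT replicate 1 another held 35 of 52 Myh8 UMIs. How many of all genes separate this way in these barcodes was not counted. Below the lower bounds the groups overlapped, with Myh3 at 20.8 ± 3.66 CPM in KO and 20.1 ± 2.66 CPM in WT and Myh8 at 69.4 ± 26.0 and 65.1 ± 40.2 CPM (exact p = 1.0).

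Every KO library lay on one side of every WT library for the CPM of Myh8 in 3 stages, but not on the same side. The difference of KO from WT was -1.66 CPM in progenitor-like cells and -11.6 CPM in myoblast-like cells, and 463 CPM in myotube-like cells. The share of thinned cells with a Myh8 UMI overlapped between groups in progenitor-like cells, averaging 1.26% in WT and 1.29% in KO. It also overlapped in myotube-like cells (41.3% and 50.7%), and was lower in each KO library in myoblast-like cells. By CPM, 18.2% of genes tested lay on the same side as Myh8 in myoblast-like and 20.6% in myotube-like cells. This was not counted in progenitor-like cells. The difference between stages was not tested.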

How the results depend on the processing

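Of 287 alternative values, 239 kept their direction and side of the threshold, or stayed near the value reported. The number of genes that edgeR called, 0 in each comparison with all 4 libraries, moved under other settings. DESeq2 called 1 gene in myogenic-like, 51 in all kept, 47 in outside, 1 in myoblast-like and 126 in barcodes above the bounds. With 1 library left out, edgeR called 0 to 16 in myogenic-like, 0 to 58 in all kept, 0 to 38 in outside, 1 to 6 in myoblast-like, 17 to 58 in myotube-like and 0 to 9 above the bounds, where the lone library of a group was assumed to vary like the other group.

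Direction turned with 1 library left out. In myogenic-like cells without KO replicate 2, Myh3 was at -0.29 and Myh8 at -0.24 (log2), against at most 1.38 and 0.97 without KO replicate 1. Over all kept cells, Myh1 was at 0.0044 without WT replicate 2, 0.061 without KO replicate 2, -0.77 without KO replicate 1, 0.16 with no upper bounds and 0.19 in all deposited barcodes (the last 2 added after seeing the data), and Myh6 at -0.10 without WT replicate 2 and 0.97 without WT replicate 1. Outside, Myh6 was at -0.025 without WT replicate 2 and -0.082 without KO replicate 2, against 0.95 without WT replicate 1. Myh3 ranged from -0.64 to 0.44 in myoblast-like cells (the latter without WT replicate 2) and from -0.26 to 1.22 in myotube-like cells (the former without KO replicate 2). The difference in the share with any of the 8 genes ranged from -1.005 to 0.159 points, in the Myh3 share from -0.922 to 7.07 and in co-detection from -8.28 to 13.7. With no thinning these were -3.55 for any gene and -1.81 for co-detection, and the Myh3 share was 9.98 points without the 10 richest cells of each library. Except where a library was left out, the cause was not tested.

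Replicate numbers were not stated to mark a pairing, and the correlation of same-numbered libraries was 0.0015 to 0.376 over 2 pairs. With the replicate number as a replicate block edgeR called 13 genes in myogenic-like, 9 in myoblast-like and 3 above the bounds, and no member. Myh3 was then at 0.63 (edgeR adjusted p = 0.450) in myogenic-like cells and at 1.77 (adjusted p = 0.345) above the bounds.

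With 2 libraries a group, of which 1 KO library stood apart by Xist, small differences could not be resolved. Members with few UMIs rested on few barcodes.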
